A study of Drosophila melanogaster with 8 samples.

Results

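LysB, LysE and Jon65Aiii, 3 Drosophila melanogaster genes for digestive enzymes of the gut, were followed in whole adult flies of 2 genotypes. By name, 1 probe of the array was matched to each, listed as NM_079158 (LysB), LP07339 (LysE, named through its cDNA clone) and NM_139756 (Jon65Aiii). These 3 were the genes with a symbol among 19206 tested targets that belong to a list of gut enzymes. They were chosen by their lower values in the mutant on these same arrays, so the comparison of the genotypes is given for them as a description, with no p-value. A target is a gene, or an array identifier where no gene symbol could be assigned.

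The tested genotype was w1118;darkcd4, which carries the mutant allele darkcd4 of dark. Dark protein, related to mammalian Apaf-1, forms the apoptosome on which the caspase Dronc becomes active during programmed cell death. It had been backcrossed to w1118 over 6 generations. The control genotype was w1118, the strain that both genotypes share as background. There were 4 samples per genotype. A sample was the pooled total RNA of 5 whole flies at day 5 of adult life, kept at 25 °C and free to mate. The labels give neither the sex of the flies nor whether samples came from separate cultures, so any spread given here is that between these samples. The 3 genes are annotated on chromosome arm 3L, and dark on arm 2R.

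Lysozymes cut the peptidoglycan wall of bacteria. In flies the LysB and LysE genes belong to a cluster of close copies that are active mainly in the midgut, where the enzymes are held to digest bacteria taken up with decaying food. The Jonah genes encode chymotrypsin-like serine proteases of the midgut, which cut dietary protein, and Jon65Aiii is one of them. All are made in large amounts by the cells of the gut wall and secreted into its lumen. In RNA from whole flies, fewer gut cells and less RNA per cell cannot be told apart.

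Some arrays stood apart before any gene was compared. The 75th percentile of the processed signal, to which each array was scaled, was 253.9 to 515.7 on darkcd4 arrays and 456.5 to 553.1 on w1118 arrays. The mean log2 level of 12 small structured RNAs (spliceosomal RNAs, snoRNAs and the like) was 1.92 and 1.44 on darkcd4 1 and 2 and 1.19 on w1118 1, against -0.68 to -0.23 on the other arrays. The 8 arrays shared 1 slide and 1 scan, and its 2 rows were balanced, with 2 darkcd4 and 2 w1118 arrays in both. Row 1 held replicates 1 and 2 of both genotypes, the 3 arrays with high small RNAs among them. Each column of the slide held 1 genotype, so column and genotype cannot be told apart. Between 70.3% and 78.0% of the spots that are not controls were well above background.

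LysB was far lower in the mutant. The mean processed signal of its 2 spots was 2360.0, 4027, 10067 and 6675 on darkcd4 arrays 1 to 4, against 36942.5, 38423, 42021 and 32925 on w1118 arrays 1 to 4. Every darkcd4 signal lay below every w1118 signal, and darkcd4 1 and 2 were the lowest. Scaled to the 75th percentile of the array, the log2 levels were 3.22, 3.46, 4.29 and 4.17 on darkcd4 arrays and 6.34, 6.12, 6.48 and 6.07 on w1118 arrays. The means were 3.78 ± 0.53 in darkcd4 and 6.25 ± 0.19 in w1118 flies (SD, n = 4 each), with a gap of 1.79 between the highest darkcd4 and the lowest w1118 array. The difference was -2.47 ± 0.25 (log2, SE from limma), which is 18.1% of the w1118 level or 5.53-fold lower.

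LysE showed nearly the same picture. Its mean processed signal was 3983, 6513, 13570.3 and 9898 on darkcd4 arrays 1 to 4, against 47986, 46484, 53746 and 45318 on w1118 arrays 1 to 4. The groups did not overlap, and the same darkcd4 arrays, 1 and 2, were lowest. The scaled log2 levels were 3.97, 4.15, 4.72 and 4.74 on darkcd4 arrays and 6.72, 6.39, 6.83 and 6.54 on w1118 arrays. The means were 4.39 ± 0.39 in darkcd4 and 6.62 ± 0.19 in w1118 flies (SD, n = 4 each), and the gap between the groups was 1.65. LysE differed by -2.22 ± 0.21 (log2, SE from limma), or 4.67-fold. LysB and LysE are near-identical copies, so a probe for either can bind RNA of the other and of further copies in the cluster, and the assignment of the signal to each gene is uncertain.

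Jon65Aiii differed far less between the genotypes than either lysozyme. Its mean processed signal was 30649, 34435, 57767 and 45927 on darkcd4 arrays 1 to 4, against 85595, 76625, 75795 and 78133 on w1118 arrays 1 to 4. The scaled log2 levels were 6.91, 6.55, 6.80 and 6.96 on darkcd4 arrays and 7.55, 7.11, 7.32 and 7.32 on w1118 arrays. The groups again did not overlap, but the gap between them was only 0.16, less than the SD within either group. The means were 6.81 ± 0.18 in darkcd4 and 7.33 ± 0.18 in w1118 flies (SD, n = 4 each), a difference of -0.52 ± 0.18 (log2, SE from limma), or 1.43-fold. This size depended on the scaling. With quantile normalization between arrays the difference was -0.82 ± 0.25, with darkcd4 1 to 4 at -1.23, -1.36, -0.41 and -0.27 relative to the w1118 mean.

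**Figure D1:**
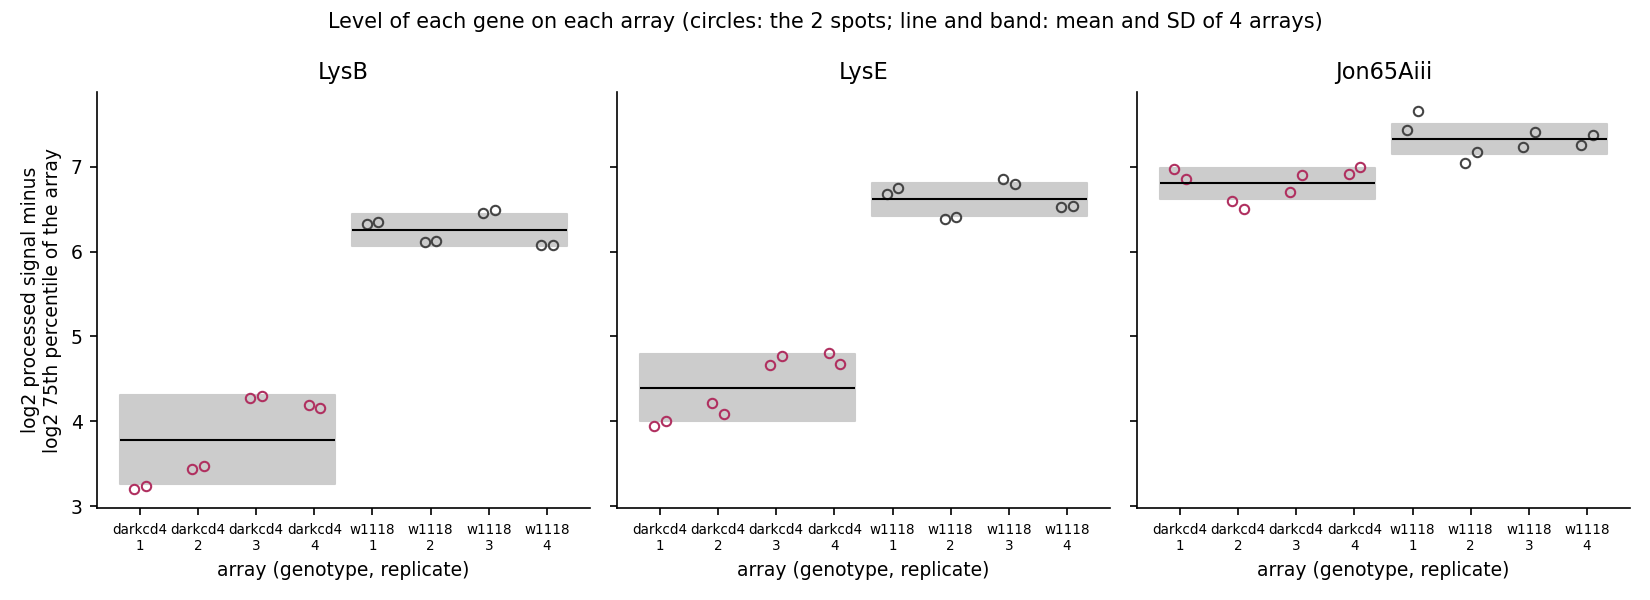
Log2 processed signal minus the log2 75th percentile of the array (vertical axis) for LysB, LysE and Jon65Aiii on 4 darkcd4 and 4 w1118 arrays; circles are the 2 spots of the probe, lines the mean of 4 arrays and grey bands 1 SD to either side. The gap between the genotypes is 1.79 for LysB, 1.65 for LysE and 0.16 for Jon65Aiii, and darkcd4 1 and 2 are the lowest arrays for both lysozymes.

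In the fit across all 19206 targets (limma, Benjamini-Hochberg adjusted p under 0.05), 420 were called between the genotypes, which is 2.19% of them. Lower calls in darkcd4 made up 0.906% of all targets. LysB and LysE were among these and Jon65Aiii was not. The number called over all targets was 2528 without darkcd4 3 and 136 to 282 without any other single array, and the calls of the 3 genes did not depend on it. For 5.82% of all targets every darkcd4 array lay below every w1118 array, and this held for 3 of the 3 genes. Since the genes were chosen on this contrast, nothing is read from these counts. By size, 21 targets had a larger fall than LysB (0.109%), none of them with a gene symbol, and 28 a larger one than LysE (0.146%). Jon65Aiii had 1678 targets (8.74%) with a larger fall.

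The median difference of all targets was -0.02 on the log2 scale, and it was not the same at every brightness. Over the 61 other targets within 0.5 of the mean log2 level of Jon65Aiii the median difference was 0.35, and over the 236 and 180 such targets around LysB and LysE it was 0.12 and 0.13. The targets as bright as these 3 genes thus tended to lie higher in darkcd4, the opposite side from the 3 genes. This was most so around Jon65Aiii, whose own difference was -0.52. The part of brightness in the result was not tested.

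**Figure D2:**
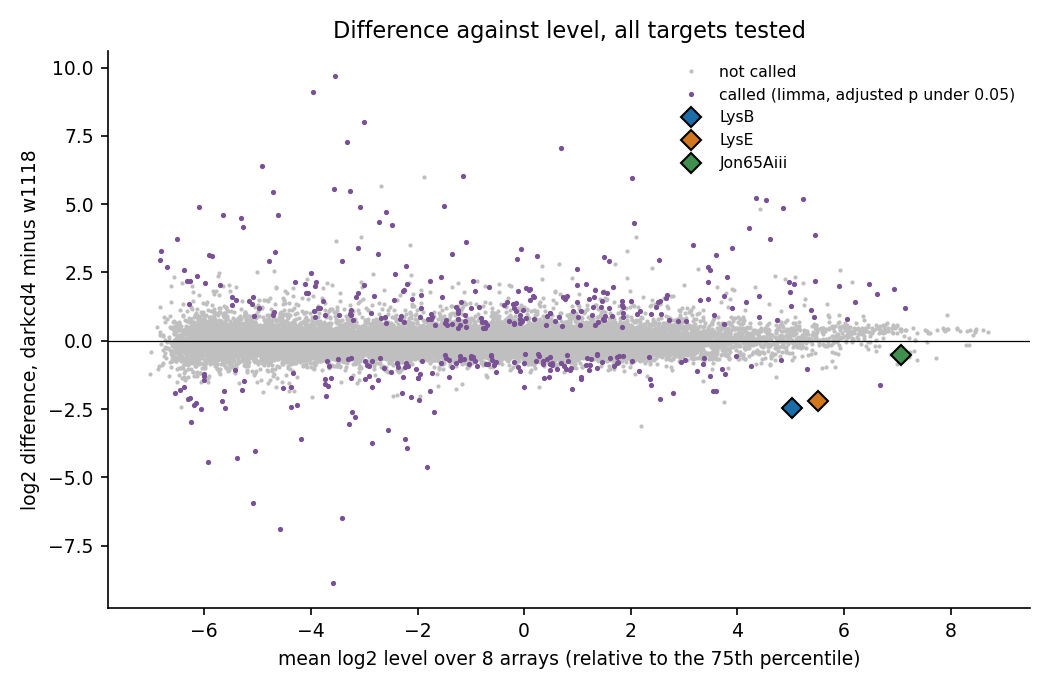
Log2 difference, darkcd4 minus w1118 (vertical axis), against the mean log2 level over 8 arrays (horizontal axis) for the 19206 targets tested; grey points were not called, purple points were called by limma at an adjusted p under 0.05, and diamonds mark the 3 genes. LysB at -2.47 and LysE at -2.22 lie well below the cloud at their brightness, and Jon65Aiii at -0.52 lies in its lower part.

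The lysozymes changed alike from array to array. Set against the w1118 mean, LysB was at 12.2%, 14.4%, 25.6% and 23.7% on darkcd4 arrays 1 to 4, and LysE at 16.0%, 18.1%, 26.8% and 27.2%. Both were therefore lower on darkcd4 1 and 2 than on darkcd4 3 and 4. The LysB difference minus that of LysE was -0.24 on the log2 scale, where the per-array gap between them varied with an SD of 0.14 among darkcd4 and 0.08 among w1118 arrays. Jon65Aiii was at 75.2%, 58.5%, 69.7% and 77.4% on darkcd4 arrays 1 to 4, with darkcd4 2 the lowest. This order was that under scaling by the 75th percentile. After quantile normalization darkcd4 1 and 2 were the lowest for Jon65Aiii too. They were also the lowest in the processed signal, which is not scaled between arrays. Among darkcd4 arrays these 2 had the lowest 75th percentiles as well, at 253.9 and 366.5. The LysB difference minus that of Jon65Aiii was -1.95 on the log2 scale, with SDs of the per-array gap of 0.51 among darkcd4 and 0.19 among w1118 arrays. For LysE minus Jon65Aiii it was -1.71, with SDs of 0.38 and 0.15.

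Among darkcd4 arrays the SD of LysB was larger than that of 81.0% of all targets, the SD of LysE larger than that of 64.7%, and the SD of Jon65Aiii larger than that of 24.8%. Among w1118 arrays the corresponding shares were 49.0%, 50.4% and 45.3%. The low spread of Jon65Aiii depended on the scaling. After quantile normalization its SD among darkcd4 arrays was 0.56, larger than that of 84.1% of targets, beside 0.68 for LysB and 0.59 for LysE. Scaled to the 75th percentile, the median SD over all targets was 0.305 among darkcd4 and 0.192 among w1118 arrays, so darkcd4 arrays were the more variable in general. Inside an array, the log2 gap between the 2 spots of a probe was at most 0.04 for LysB and 0.13 for LysE. For these 2 it lay below the SD in both genotypes. For Jon65Aiii the gap reached 0.23, with a median of 0.13, beside an SD of 0.18 in both genotypes when scaled to the 75th percentile. The median gap over all 20923 probes with 2 spots was 0.09. All 16 spots of each gene were well above background, and none was saturated or marked as an outlier. Each gene rests here on 1 probe matched by name. Only 387 of 32162 probes could be named, so further probes for these genes may be among the others. No second probe could therefore be set beside these values.

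By rank, all 3 genes stood among the brightest targets of the fly. LysB ranked 1179, 962, 503 and 551 of 19206 on darkcd4 arrays 1 to 4, against 134, 102, 77 and 119 on w1118 arrays 1 to 4. LysE ranked 768, 673, 388 and 387 on darkcd4 arrays, against 85, 69, 50 and 65 on w1118 arrays. For LysB between 2.61% and 6.13% of targets were brighter on darkcd4 arrays, and between 0.396% and 0.693% on w1118 arrays. The lysozymes thus stayed bright in the mutant while many targets moved ahead of them. Jon65Aiii ranked 130, 152, 48 and 42 on darkcd4 arrays, against 33, 36, 37 and 31 on w1118 arrays. Its rank was within the first 48 on all w1118 arrays and on darkcd4 3 and 4, while darkcd4 1 and 2 placed it past 100. A rank compares signals of different probes, which bind their targets with different strength, so it orders brightness on the array and not RNA amounts between genes.

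**Figure D3:**
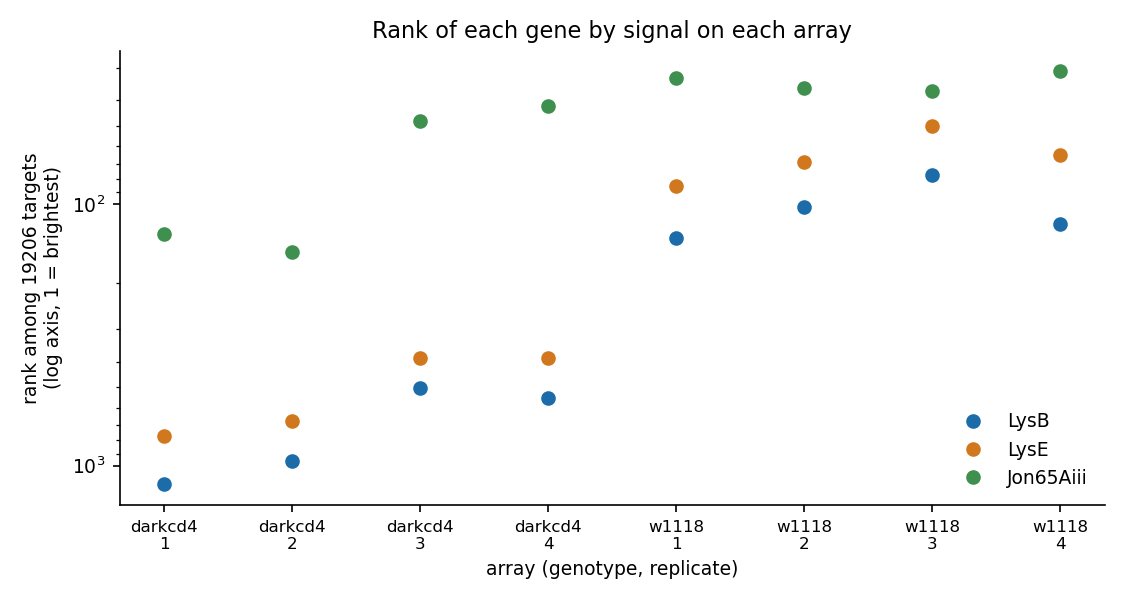
Rank of LysB, LysE and Jon65Aiii by signal among 19206 targets (vertical axis, log scale, 1 is the brightest) on each of 4 darkcd4 and 4 w1118 arrays, 1 point per gene and array. LysB lies between 503 and 1179 on darkcd4 arrays and between 77 and 134 on w1118 arrays, and Jon65Aiii reaches at most 152.

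The row of the slide played no part in choosing the genes, so it was tested, with genotype in the model. Row 1 held replicates 1 and 2 and row 2 replicates 3 and 4 of both genotypes. The row therefore cannot be told apart from anything that went with these replicate numbers. LysB was lower in row 1 than in row 2 by 0.89 among darkcd4 arrays (means 3.34 and 4.23) and by 0.05 among w1118 arrays (means 6.23 and 6.28). Over both genotypes the row difference was -0.47 ± 0.20 for LysB, -0.40 ± 0.16 for LysE and -0.07 ± 0.17 for Jon65Aiii (log2, row 1 minus row 2, SE). None of the 3 passed the test (limma, adjusted p = 0.142, 0.138 and 0.792). No target did: 0 of 19206 were called (0%), with 6229 (32.4%) at an unadjusted p under 0.05 and a smallest adjusted p of 0.094. With so large a share, the 0 calls do not show that the rows were alike. The 95% intervals, not adjusted for the number of targets, were -0.92 to -0.02 for LysB, -0.77 to -0.03 for LysE and -0.46 to 0.32 for Jon65Aiii. With quantile normalization the row difference was -0.66 ± 0.21 for LysB, -0.63 ± 0.16 for LysE and -0.50 ± 0.18 for Jon65Aiii, so that the protease came near the lysozymes, and again none passed (limma, adjusted p = 0.0969, 0.0916 and 0.112).

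Within each row the mutant arrays were lower for all 3 genes, which were chosen by that difference over both rows. In row 1 the genotype difference was -2.89 ± 0.22 for LysB, -2.49 ± 0.24 for LysE and -0.60 ± 0.34 for Jon65Aiii (log2, SE from limma, n = 2 per genotype). In row 2 it was -2.04 ± 0.16, -1.95 ± 0.14 and -0.44 ± 0.13. The difference between rows in the genotype effect was tested as an interaction, at -0.85 ± 0.27 for LysB, -0.54 ± 0.27 for LysE and -0.15 ± 0.33 for Jon65Aiii. It did not pass for any of them (limma, adjusted p = 0.332, 0.374 and 0.830). The 95% intervals, again not adjusted, were -1.47 to -0.22, -1.16 to 0.08 and -0.92 to 0.61. Across all targets 0 of 19206 were called for the interaction (0%), with 2792 (14.5%) at an unadjusted p under 0.05. With quantile normalization the interaction was -0.99 ± 0.25 for LysB, -0.76 ± 0.20 for LysE and -0.90 ± 0.20 for Jon65Aiii, and did not pass for any of them (limma, adjusted p = 0.340 for each). The interaction of Jon65Aiii thus depended on the scaling and was then of the size seen for the lysozymes.

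Among darkcd4 arrays, those with the lower lysozyme values, 1 and 2, were also those with high small structured RNAs. On w1118 1, which had high small RNAs as well, LysB and LysE were at 6.34 and 6.72. The w1118 means were 6.25 and 6.62. The 75th percentile was 253.9, 366.5, 515.7 and 369.8 on darkcd4 arrays 1 to 4, where LysB was at 3.22, 3.46, 4.29 and 4.17. Among darkcd4 arrays LysB thus rose in the order of the percentile, and darkcd4 2 and 4 had nearly the same percentile. LysE did so except on darkcd4 3 and 4, at 4.72 and 4.74. The parts of the small RNAs and of the percentile in the result were not tested. Without darkcd4 1, darkcd4 2 and w1118 1 the genotype differences were -1.99 ± 0.14 for LysB, -1.86 ± 0.14 for LysE and -0.37 ± 0.13 for Jon65Aiii (log2, SE, 2 darkcd4 and 3 w1118 arrays). LysB and LysE were again called, on the contrast by which the genes were chosen.

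Likeness of pattern was measured as the root mean square difference of log2 levels over the 8 arrays, after the mean of each target was taken off. LysB and LysE were each the nearest of all 19205 other targets to the other, at 0.16. The median distance of all targets was 1.29 from LysB and 1.15 from LysE, where a target with no change on any array would lie at 1.28 and 1.14. These medians thus give little beyond the size of the genotype difference on which the genes were chosen. The next named gene for both was Zip42C.2, of the ZIP family of metal transporters, at 0.78 from LysB and 0.72 from LysE. It was a dim target, well above background on 7 arrays, and it stood only 117th among all targets by its distance to LysB. The third was CG17633, a predicted metallocarboxypeptidase, at 0.84 and 0.73. CG17633 was at 3.77, 3.76, 4.98 and 4.27 on darkcd4 arrays 1 to 4, against 5.06, 4.99, 5.10 and 4.97 on w1118 arrays 1 to 4. Its darkcd4 3 value nearly met the w1118 arrays, and its difference of -0.84 ± 0.26 was not called.

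From Jon65Aiii, LysE stood at 0.89 and LysB at 1.03. The measure keeps the size of a change, so these distances mostly restate the smaller genotype difference of Jon65Aiii and do not show that its pattern was of another shape. Its nearest named genes were MCU, which encodes the pore of the mitochondrial calcium uniporter, at 0.19, lncRNA:Yu, a long noncoding RNA, at 0.19, and CG33293 at 0.19. These 3 differed by -0.34 ± 0.12, -0.30 ± 0.11 and -0.31 ± 0.12 (log2, SE), and none was called. They were not singular, since 3835 targets lay within 0.3 of Jon65Aiii and a target with no change on any array would lie at 0.30.

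**Figure D4:**
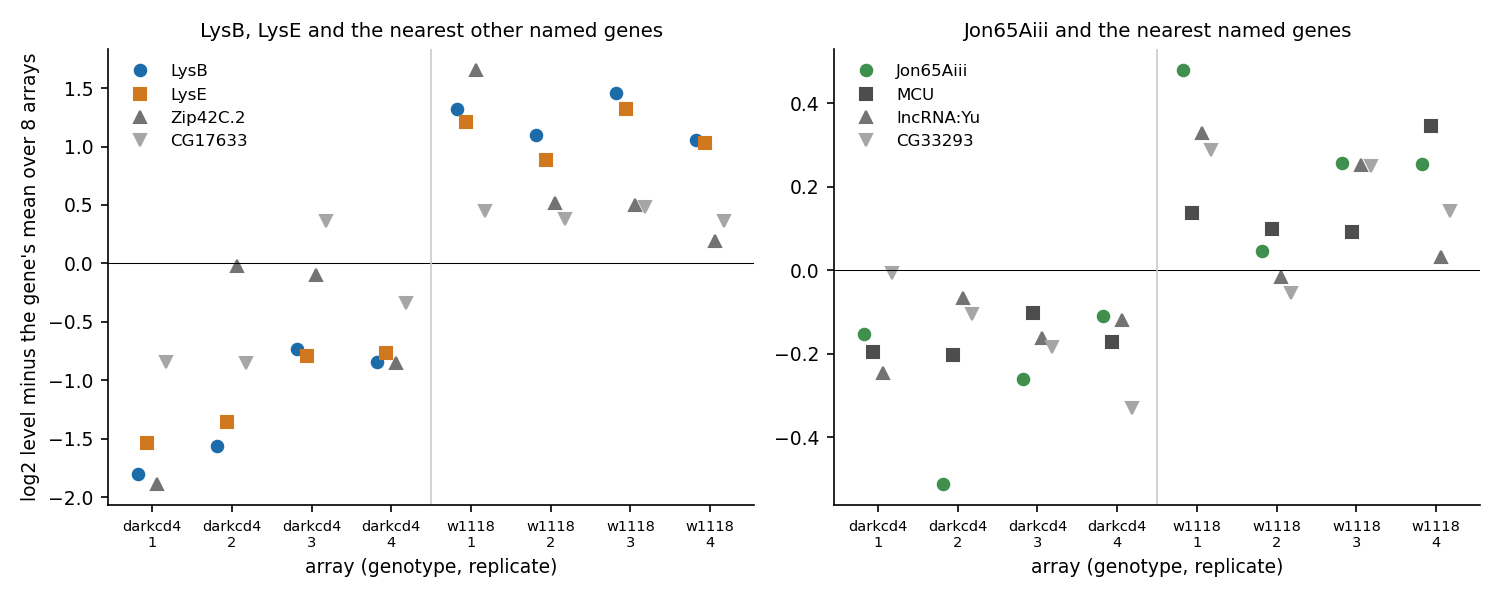
Log2 level minus the mean of each gene over 8 arrays (vertical axis) on 4 darkcd4 and 4 w1118 arrays, for LysB and LysE with their nearest other named genes (left) and for Jon65Aiii with its nearest named genes (right); each point is 1 array, and points are shifted sideways for legibility. LysB and LysE lie close together on every array, at a distance of 0.16, whereas the named genes beside them lie at 0.72 to 0.84.

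The rest of the digestive set could hardly be seen by name. Of 72 genes in the lists of lysozymes, Jonah proteases and other digestive enzymes, 3 were tested under a gene symbol, the 3 described here. In the lysozyme list 2 of 17 genes were tested, 2 were called lower and 0 higher, and the median difference was -2.35, beside 0.906% called lower and a median of -0.02 over all targets. The 2 are LysB and LysE, selected on this contrast, so the count and the median repeat that choice. In the Jonah list 1 of 16 was tested and none was called (limma), with Jon65Aiii at -0.52. The lists of other digestive enzymes (39 genes), midgut regulators and structure (19), immune effectors (23) and markers of other tissues (36) had 0 tested members. The amount of other tissues in the samples could therefore not be set beside the result. On the chromosome, LysC (annotated as a pseudogene) and LysD lie between LysB and LysE, LysP follows LysE, and Jon65Aiii lies between Jon65Aiv and Jon65Aii. No probe could be matched to any of these neighbours by name, so whether they changed was not analysed here.

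**Figure D5:**
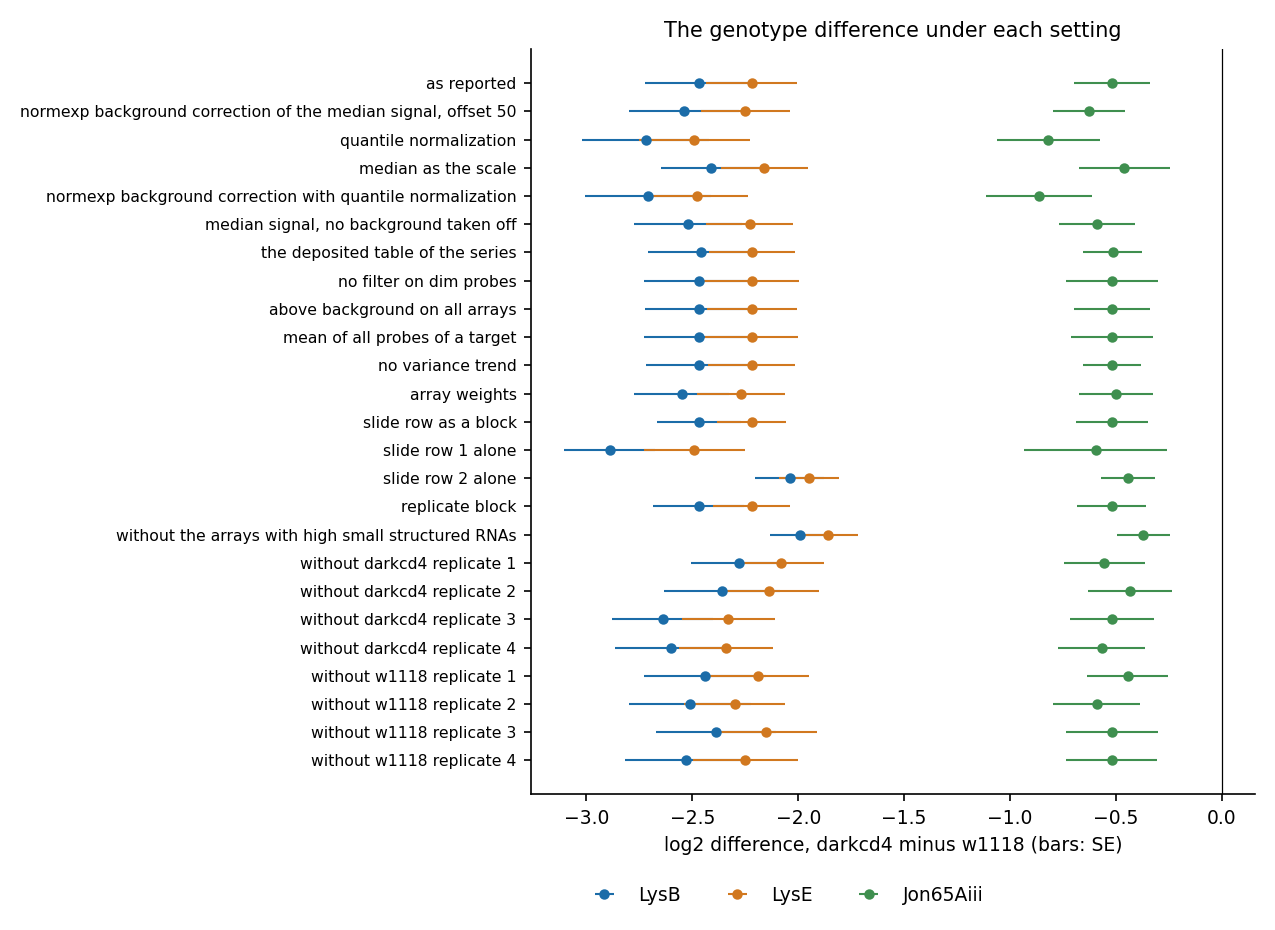
Log2 difference, darkcd4 minus w1118 (horizontal axis), for LysB, LysE and Jon65Aiii as reported and under each other processing setting or without 1 array (rows); points are the fitted difference and bars its SE. LysB stays between -2.89 and -1.99, LysE between -2.49 and -1.86, and Jon65Aiii between -0.86 and -0.37.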

How the data were processed

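RNA of 4 darkcd4 and 4 w1118 samples was measured on 1-colour Agilent arrays, with Cy3-labelled RNA made from 50 ng of each sample per the labels. Per the file headers, the intensity values were extracted with Agilent Feature Extraction 10.7.3.1, whose processed signal is background-subtracted and not scaled between arrays. The flags deposited per spot, which are other values of 0 or 1, mark spots above background and outliers. The deposited table of log2 values followed the log2 processed signal minus the 75th percentile of the array, centred on the median of each probe (r = 1 and a slope of 1 over 24649 probes); the authors' software for it is not given in the sources used here.

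Control spots, 80 probes for added RNAs and outlier spots were left out, and spots of a probe were averaged on the log2 scale. Levels are log2 processed signal minus the log2 75th percentile. Probes above background on at least 4 of 8 arrays entered (24649), and the brightest stood for its target (19206). Names came from a Release 6 gene table: 387 of 32162 probes were named, 149 by clone. The 20979 probes listed by FlyBase transcript number are not paired with genes there. The deposited spot tables name build dm3, so no coordinates are printed.

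Groups were fitted with limma 3.58.1 (R 4.3.3; lmFit, then eBayes letting the variance follow the level). P-values were adjusted by Benjamini-Hochberg over all targets, with 0.05 as the threshold, and the procedure was tested on simulated data. Figures were drawn with matplotlib 3.10.9 in Python 3.11.15. The 3 genes, the lists and the settings were chosen with earlier results of these data known. The named genes were the 3, any other tested list member and the 3 nearest named targets of each. The window of brightness was chosen after the values were seen. The planned normexp correction used the median signal, as the files hold no mean signal column. Planned comparisons of promoter motifs and proteins were not run here. No array was a copy of another (r of 0.951 to 0.994 over targets, which are not independent).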

Additional observations from a re-analysis of the deposited data

How the results depend on the processing

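All 24 alternatives left the 3 genotype differences negative, and LysB and LysE were called and Jon65Aiii was not in each. The genes were chosen by this contrast on these same arrays, so nothing is read from the signs and calls. LysB moved most in row 1 alone (-2.89), row 2 alone (-2.04) and without the 3 arrays with high small structured RNAs (-1.99), where LysE also moved most (-1.86). The SD of LysB between arrays was 0.53 in darkcd4 and 0.19 in w1118, and that of LysE 0.39 and 0.19. Jon65Aiii moved most with quantile normalization (-0.82), also after normexp correction (-0.86). Leaving out 1 array gave -2.64 to -2.28 for LysB, -2.34 to -2.08 for LysE and -0.59 to -0.43 for Jon65Aiii. The cause of these shifts was not tested. With normexp correction alone the median of all targets was 0.13, against -0.02, and the 3 differences were -2.54, -2.25 and -0.63, so relative to that median they were larger.

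The number of targets called (420) depended on the arrays: it was 2282 with array weights, whose estimate did not fully converge, 1740 with the row as a block (which cannot move a difference in this balanced layout, only its error), 911 within row 1 and 200 within row 2. Dropping any single array gave 136 to 2528: 196, 153, 2528 and 282 without darkcd4 1, 2, 3 and 4, and 251, 172, 136 and 179 without w1118 1, 2, 3 and 4. With the replicate number as a block it was 1045. Same-numbered arrays had correlations of their deviations of 0.68, -0.18, 0.29 and 0.33 for numbers 1 to 4, so 3 of 4 were over 0.1. However, darkcd4 2 correlated best with w1118 1 (0.56), and darkcd4 3 and 4 with w1118 2 (0.37 and 0.36). The numbers thus gave no clear pairing. The block left the calls of the 3 genes as they were.

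Row differences and interactions stayed uncalled for all 3 genes in all 19 alternatives (limma, adjusted p between 0.079 and 0.993). Those of Jon65Aiii depended on the scaling: the row difference was -0.50 with quantile normalization, -0.51 with normexp before it and 0.0033 with the median as the scale, and the interaction was -0.90 and -0.965 with the first 2 of these. Leaving out 1 array also turned their sign, with ranges of -0.17 to 0.018 for the row and -0.37 to 0.063 for the interaction; the row difference was 0.0021 without w1118 2 and 0.018 without darkcd4 2, and the interaction 0.063 without w1118 1 and 0.027 without darkcd4 2. Ranks among all probes in place of targets moved the shares of brighter targets by less than the spread between arrays. With 4 arrays per genotype and 1 probe per gene, small differences such as that of Jon65Aiii are near what these data can resolve.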

Other observations

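Several targets without a gene symbol lay nearer to the lysozymes than any other named gene did. Only 267 of the 19206 targets had a gene symbol. The distance also mostly holds the genotype difference on which the lysozymes were chosen, since a target with no change would lie at 1.28 from LysB and 1.14 from LysE. Nothing further is read from the nearness of these targets. Within a root mean square distance of 0.3 over the 8 arrays lay 2 targets for LysB and 3 for LysE, the other lysozyme counted in each, and within 0.5 lay 19 and 32, of 19205. The nearest after the lysozymes themselves was the array identifier TC225380, at 0.29 from LysB and 0.23 from LysE, with a log2 difference of -2.36 (darkcd4 minus w1118); it was dim, at a mean log2 level of -4.26. FBtr0088473 lay at 0.32 and 0.23 and differed by -1.92. The reference used here pairs neither with a gene, so nothing can be said of what they encode, and both were picked after their values were seen.

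None of 20 groups of 4 arrays checked for an array far from the others held one, among them the levels of the 3 genes and of the named genes nearest to them. With 4 arrays such a check can miss an array that stands apart. Zip42C.2, for one, was at -3.27 on w1118 1 against -4.41, -4.43 and -4.73 on w1118 2, 3 and 4. The check does not take back the arrays that stood apart by their small structured RNAs.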
